A study of Xenopus laevis with 9 samples.

Results

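The neural plate border (NPB) libraries of this series are set here against the blastula explants of the same series, across all genes. NPB explants are animal pole explants of wild-type Xenopus laevis embryos that had received Wnt8a and Chordin mRNA and were collected at stage 11.5, in mid gastrulation. WT explants are animal pole explants of wild-type embryos at stage 9, a blastula stage, for which the labels give no treatment. The study's methods also describe induction with small molecules, but the labels of the NPB libraries name only the mRNAs. There were 3 libraries of each, so that 6 of the 9 libraries of the series are used. The other 3 libraries, stage 9 explants with soxb1 morpholinos, enter only an alternative fit. The libraries were made from pooled whole explants rather than sorted cells, and nothing says whether the replicates, which the study calls biological, came from separate clutches, so that p-values measure only the spread between these libraries. Stage, mRNA injection and count table all change together between the groups and cannot be told apart; no uninduced explant of stage 11.5 was analysed here.

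Cells of the blastula animal pole are pluripotent, and they still hold many RNAs and proteins that the mother stored in the egg. The neural plate border is the strip of ectoderm between the future neural plate and the epidermis. It gives rise to neural crest and cranial placodes, and it forms where BMP signalling is held at an intermediate level while Wnt and FGF signals are present. Wnt8a is a Wnt ligand and Chordin binds BMP ligands outside the cell, so the pair of mRNAs supplies Wnt and lowers BMP in explants that would otherwise become epidermis. X. laevis is an allotetraploid, and most genes exist as an L and an S homeolog, which were counted separately.

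The NPB libraries held 36887771, 29964824 and 48839143 counts and the WT libraries 25796466, 28180157 and 31297174. Values below are given as counts per 1000000 of the library total (CPM), in the order of replicates 1, 2 and 3. Fold changes come from the trimmed mean of M-values (TMM) scaling, a gene was called at an adjusted p of 0.05 or less in edgeR's quasi-likelihood test, and the value after ± is the SE of the log2 fold change. No fold change is given for a gene with 3 or fewer counts in every library of a group. Such a gene passed the filter on low counts only through the other group, so it could be called only as higher there. The genes of the injected mRNAs were both high in NPB explants, and neither overlapped between the groups. Over all genes tested, the NPB libraries lay wholly above the WT libraries in TMM-scaled CPM for 31.5% of genes and wholly below them for 32.5%. Of the injected genes, wnt8a.L had 291, 546 and 293 CPM in NPB explants, against 1.202, 0.319 and 0.351 CPM in WT explants (adjusted p = 4.28e-05, log2 fold change 9.94 ± 0.61). Chrd.1.S had 2458, 13318 and 2957 CPM in NPB explants, against 1.78, 1.21 and 0.256 CPM in WT explants. The injected mRNA and the endogenous transcript cannot be told apart in these counts, and NPB replicate 2 held the most of both.

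NPB replicate 1 stood apart from the other NPB libraries. Of 2254 genes of the gene lists with a mean of at least 10 CPM in NPB explants, 46 had a library at least 4-fold above or below both others after TMM scaling. Replicate 1 was that library for 39 of them (22 highest, 17 lowest), replicate 3 for 5 and replicate 2 for 4, where cdx1.S and cdx2.L counted for both replicates 1 and 3. Among genes with a group mean of at least 10 CPM, 2.39% of 9967 differed at least 4-fold among NPB libraries and 1.71% of 12602 among WT libraries. The chi-square per gene between libraries, which also grows with depth, was 99.8 and 96 for the pairs with NPB replicate 1 and 51.8 for the other NPB pair, against 41.2 to 58.5 for the WT pairs. Of the 39 genes, 24 were called with all libraries, and 23 of these kept their call without replicate 1; dlx5.S lost it (adjusted p = 0.0502), as it did without WT replicate 1 (0.0829), 2 (0.0933) or 3 (0.0754). Of the 15 not called, 7 were called once replicate 1 was left out, among them myc.S (lower, adjusted p = 0.000911) and hes5.10.L (higher, adjusted p = 0.00248).

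Of 21981 genes tested, 53.7% were called, 26.9% higher in NPB explants and 26.7% lower, which is the background for the counts in each gene list below. The large changes were less even. Calls of at least 16-fold numbered 995 higher (4.53% of all genes) and 186 lower (0.846%), whereas calls of at least 4-fold numbered 2777 higher (12.6%) and 2267 lower (10.3%). The genes called higher took up 75.7%, 71% and 70.3% of all counts in NPB explants, against 39%, 37.9% and 36.4% in WT explants. The genes called lower took up 5.13%, 6.87% and 7.13% of counts in NPB explants, against 27.7%, 28.5% and 30.2% in WT explants. The scaling bore on the direction of small changes. With library totals alone the median over all genes was −0.72 on the log2 scale instead of −0.04, and calls were 3637 higher and 9732 lower. List medians on that scale are therefore to be read against −0.72. In whole explants, fewer cells of a type and less RNA per cell cannot be told apart.

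**Figure D1:**
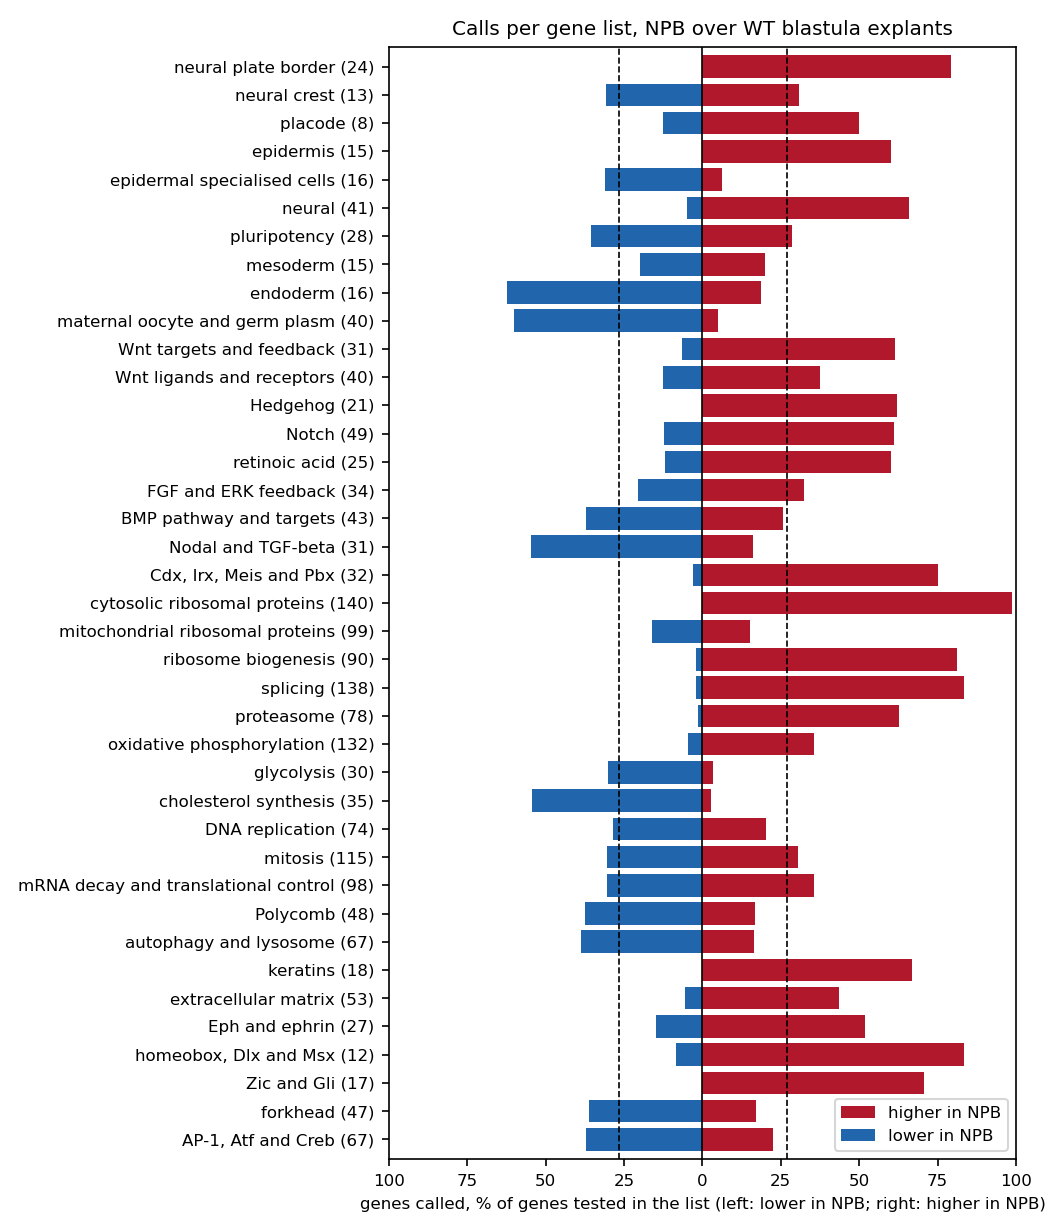
Share of tested genes of each list that were called higher (bars to the right) or lower (bars to the left) in NPB explants than in WT explants, in percent, with the number of genes tested after each list name. Dashed lines mark the shares over all genes, 26.9% higher and 26.7% lower; the border, cytosolic ribosomal protein and splicing lists reach 79.2%, 98.6% and 83.3% on the right, and the endoderm and maternal lists 62.5% and 60.0% on the left.

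Genes that specify the border were mostly higher in NPB explants. Of the border list, 19 of 24 tested genes were higher and 0 lower, with a median log2 fold change of 3.04 (2.30 with library totals). No gene of the list was lower with DESeq2, with limma-voom or at an unadjusted edgeR p under 0.05, and the same held for the epidermis, keratin, Hedgehog, Zic and Gli, and cytosolic ribosomal protein lists described below. It did not hold under every alternative. With library totals, 1 gene was called lower in each of the border, Hedgehog, and Zic and Gli lists and 3 in the keratin list. Without NPB replicate 1, the epidermis list had 8 genes called higher and 1 lower. Members too low in WT explants for the filter on low counts, such as msx1.S, passed it only through their NPB counts. They could not have been called lower, so the lack of lower calls says nothing about them. The paired box factor pax3, a defining border gene, rose from both homeologs, and pax3.S had 289, 104 and 89.1 CPM in NPB explants, against 1.55, 0.177 and 0.671 CPM in WT explants (adjusted p = 0.00031, log2 fold change 8.41 ± 0.91). All 3 NPB libraries lay above all WT libraries. The homeobox repressor msx1.S had 35.2, 10.2 and 25.8 CPM in NPB explants, against 0.271, 0.248 and 0.383 CPM in WT explants (adjusted p = 9.13e-05, log2 fold change 6.99 ± 0.61). Dlx5, a homeobox factor of the lateral border and placodes, had for its L homeolog 58.6, 15.3 and 14.5 CPM in NPB explants, against 0.504, 0.745 and 1.44 CPM in WT explants (adjusted p = 0.0009, log2 fold change 5.78 ± 0.81). For both genes the groups did not overlap, and NPB replicate 1 held the most. Zic1, the zinc finger partner of pax3 in neural crest induction, was already present in the blastula: zic1.S had 588, 683 and 723 CPM in NPB explants, against 77.1, 57.98 and 127 CPM in WT explants (adjusted p = 7.28e-05, log2 fold change 3.61 ± 0.30).

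Among the border genes not called were AP-2 factors and pax7. The AP-2 gene tfap2c.S had 137, 27.97 and 29.7 CPM in NPB explants, against 59.3, 71.7 and 56.9 CPM in WT explants. It was not called with all libraries or without NPB replicate 1 (edgeR adjusted p = 0.0553 without it). Tfap2a.L, an early regulator of both epidermis and border, had 230.2, 42.8 and 64.5 CPM in NPB explants, against 109, 104 and 114 CPM in WT explants (adjusted p = 0.305, not called). NPB replicate 1 was above every WT library and the other NPB libraries were below them. Its homeolog tfap2a.S had 199, 45.99 and 75.2 CPM in NPB explants, against 37.1, 48.9 and 34.4 CPM in WT explants and was called (adjusted p = 0.0135, log2 fold change 2.16 ± 0.56). Its log2 fold change was 1.22 without NPB replicate 1 (adjusted p = 0.00798), and its call was lost under a filter of only 1 count in total (adjusted p = 0.077). Pax7, the close relative of pax3, stayed under 1 CPM in every NPB library for both homeologs and was not called, with adjusted p = 0.265 for pax7.L and 0.101 for pax7.S. Both estimates were falls, with log2 fold changes of −0.94 ± 0.67 for pax7.L and −1.52 ± 0.70 for pax7.S. In WT explants pax7.S had 1.74, 0.7097 and 0.735 CPM, and all NPB libraries lay below these after TMM scaling. With library totals pax7.S was called lower (edgeR adjusted p = 0.0221). Without NPB replicate 1, the border list had 18 genes called higher, none lower and a median of 2.26; pax3.S (adjusted p = 0.000522) and dlx5.L (adjusted p = 0.00041) were still called.

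Genes of the definitive neural crest moved both ways. In that list 4 of 13 tested genes were higher and 4 lower, with a median of 0.01 (−0.67 with library totals and 1.53 without NPB replicate 2), and 12 further genes were below the filter on low counts. Snai1.L, a repressor of epithelial genes, had 46.8, 20.4 and 20.5 CPM in NPB explants, against 2.09, 2.48 and 3.26 CPM in WT explants (adjusted p = 0.000245, log2 fold change 4.22 ± 0.47). Sox9.L had 9.49, 9.61 and 7.02 CPM in NPB explants, against 1.16, 0.532 and 1.28 CPM in WT explants (adjusted p = 0.00027, log2 fold change 3.83 ± 0.44). In the other direction, the Ets factor ets1.S, used later by migrating crest, had 2.196, 4.27 and 3.91 CPM in NPB explants, against 73.96, 65.6 and 66.9 CPM in WT explants (adjusted p = 5.16e-05, log2 fold change −3.64 ± 0.27). The forkhead factor foxd3.L had 0.271, 0.3004 and 0.799 CPM in NPB explants, against 13.7, 3.97 and 7.09 CPM in WT explants (adjusted p = 0.00218, log2 fold change −3.48 ± 0.63). Ednra.L, an endothelin receptor, had 0.0271, 0.133 and 0.143 CPM in NPB explants, against 3.37, 2.697 and 2.68 CPM in WT explants (adjusted p = 0.000915, log2 fold change −4.14 ± 0.62). The groups did not overlap for any of these 5 genes, so the list held calls of more than 8-fold both ways.

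Of the placode list, 4 of 8 tested genes were higher and 1 lower. Eya1.L, a phosphatase and transcriptional coactivator, had 36.8, 4.31 and 6.204 CPM in NPB explants, against 0.6202, 0.639 and 0.192 CPM in WT explants (adjusted p = 0.0031, log2 fold change 5.81 ± 1.08), and it was still called without replicate 1, the highest library (log2 fold change 4.06, adjusted p = 0.00173). The doublesex-related factor dmrta1.S had 4.01, 5.27 and 6.04 CPM in NPB explants, against 0, 0 and 0 CPM in WT explants (adjusted p = 0.000117). It passed the filter only through its NPB counts, so it could not have been called lower.

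Epidermal genes rose too. Of the epidermis list, 9 of 15 tested genes were higher and 0 lower, with a median of 1.75. The ubiquitin ligase family gene trim29.L had 145, 83.3 and 80.6 CPM in NPB explants, against 1.12, 1.45 and 4.09 CPM in WT explants (adjusted p = 0.000199, log2 fold change 6.24 ± 0.62). The keratin krt70.S had 1766, 1707 and 1361 CPM in NPB explants, against 577, 304 and 367 CPM in WT explants (adjusted p = 0.000192, log2 fold change 2.66 ± 0.28). Keratins are the intermediate filaments of epithelia. Of 76 keratin genes counted, only 18 passed the filter on low counts, and of these 12 were higher and 0 lower. Krt7.S had 823, 478 and 515 CPM in NPB explants, against 7.99, 17.2 and 22.5 CPM in WT explants (adjusted p = 0.000109, log2 fold change 5.97 ± 0.50). For none of these genes did the groups overlap. Of 22 genes of specialised epidermal cells (multiciliated cells, ionocytes and goblet cells), 16 were tested, and of these 1 was higher and 5 lower. The share called lower, 31.2%, was near the 26.7% over all genes, and the share called higher, 6.25%, was below the 26.9%. The list median of −1.25 became −0.50 without WT replicate 1. Ccno.S, a cyclin-like gene of multiciliated cells, had 0.515, 1.77 and 2.09 CPM in NPB explants, against 20.9, 14.4 and 11.9 CPM in WT explants (adjusted p = 0.00201, log2 fold change −2.77 ± 0.49).

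Markers of the other germ layers were mostly near the detection limit or lower. Of 37 mesodermal genes, 22 were below the filter, and of the 15 tested 3 were higher and 3 lower. The summed level of the mesoderm list was 14.3, 15.4 and 34.99 CPM in NPB explants, against 21.2, 29.7 and 20.2 CPM in WT explants. Tbxt.S (Brachyury), a defining mesoderm gene, had 0.352, 0.601 and 16.1 CPM in NPB explants, against 0.543, 0.674 and 0.447 CPM in WT explants (adjusted p = 0.0443, log2 fold change 3.97 ± 1.39) and its groups overlapped. Its counts were in replicate 3, and without that library it was not called (adjusted p = 0.567), nor without WT replicate 1 (0.105), 2 (0.0965) or 3 (0.113); the part of mesodermal cells in replicate 3 was not tested. Myod1.L, the muscle determinant, was at 0, 0 and 0.0205 CPM in NPB explants, against 0.504, 0.958 and 1.02 CPM in WT explants. Of 30 endodermal genes, 16 were tested, and of these 3 were higher and 10 lower, with a median of −3.11. The median depended on the filter: it was −0.46 with at least 1 count in total and −0.40 with at least 10 counts in every library. The vegetally stored T-box factor vegt.L had 0.678, 1.44 and 5.32 CPM in NPB explants, against 107, 98.6 and 64.7 CPM in WT explants (adjusted p = 0.00134, log2 fold change −4.52 ± 0.70). The endoderm factor sox17b.1.L had 0.1898, 0.868 and 1.54 CPM in NPB explants, against 19.1, 10.8 and 15.1 CPM in WT explants (adjusted p = 0.00229, log2 fold change −3.46 ± 0.63). An exception was cer1.S, a secreted antagonist of Nodal, BMP and Wnt ligands, with 67.9, 2.27 and 20.05 CPM in NPB explants, against 0.0388, 0 and 0.0959 CPM in WT explants (adjusted p = 0.00181).

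Neural genes rose beside the border genes. Of the neural list, 27 of 41 tested genes were higher and 2 lower, with a median of 2.40 (1.73 with library totals). Irx1, irx2 and irx3, homeobox factors of the early neural plate, were called from both homeologs: irx3.S had 107, 88.4 and 107 CPM in NPB explants, against 0.271, 0.248 and 0.351 CPM in WT explants (adjusted p = 8.07e-06, log2 fold change 9.11 ± 0.29). Irx2.L had 281, 245 and 241 CPM in NPB explants, against 13.03, 7.03 and 6.04 CPM in WT explants (adjusted p = 3.3e-05, log2 fold change 5.58 ± 0.35). The replicates of irx3.S differed little from each other. Elavl3.L, an RNA-binding protein of young neurons, had 30.1, 42.6 and 43.9 CPM in NPB explants, against 1.899, 2.16 and 0.415 CPM in WT explants (adjusted p = 0.000186, log2 fold change 5.39 ± 0.56). Ncam1.S, a neural adhesion molecule, had 47.6, 7.31 and 9.05 CPM in NPB explants, against 0.388, 0.177 and 0.256 CPM in WT explants (adjusted p = 0.00102, log2 fold change 7.04 ± 1.02). The neurogenic factor neurog2.S had 5.18, 7.04 and 10.6 CPM in NPB explants, against 1.94, 1.45 and 2.301 CPM in WT explants (adjusted p = 0.000628, log2 fold change 2.67 ± 0.37). In each of these the NPB libraries were above all WT libraries, and the call of ncam1.S held without replicate 1 (adjusted p = 0.000224). Sox11.L, a SoxC factor, had 219.5, 339.8 and 313 CPM in NPB explants, against 49.4, 45.4 and 49.7 CPM in WT explants (adjusted p = 2.13e-05, log2 fold change 3.27 ± 0.18).

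The SoxB1 factors, which maintain pluripotency in the blastula and later neural progenitors, split by gene. Sox2 is listed as 2 L entries with the same name, which may share reads: the one with more counts, sox2.L (gene45195), had 53.6, 108 and 104 CPM in NPB explants, against 36.5, 19.6 and 23.96 CPM in WT explants (adjusted p = 0.000513, log2 fold change 2.40 ± 0.32). Sox3.S had 85.9, 251 and 265 CPM in NPB explants, against 440.0, 376 and 659 CPM in WT explants (adjusted p = 0.197, log2 fold change −0.64 ± 0.38). Sox3.L had 20.9, 79.8 and 87.7 CPM in NPB explants, against 186, 174 and 268 CPM in WT explants (adjusted p = 0.0775, log2 fold change −1.09 ± 0.45). Neither sox3 homeolog was called with TMM scaling and all libraries. With library totals both were called lower (edgeR adjusted p = 0.0162 for sox3.L and 0.0277 for sox3.S). In CPM of the library total all NPB libraries lay below all WT libraries for both, but after TMM scaling this held only for sox3.L. The SoxB1 list had 2 of 6 genes higher and 0 lower with edgeR, while 1 was lower with DESeq2, 1 with limma-voom and 2 at an unadjusted edgeR p under 0.05. Sox3.L was called lower with DESeq2 (adjusted p = 0.0299). In edgeR it was called lower without NPB replicate 1 (adjusted p = 0.0365) and with the replicate number as a block (0.0356). Sox3.S was not called in any of these fits. Replicate 1 held less sox2 and sox3 than the other NPB libraries. The summed SoxB1 level was 175, 468 and 486 CPM in NPB explants, against 675, 579 and 960.2 CPM in WT explants. The border list was highest in the same library, and it summed to 3356, 1820.1 and 2034 CPM in NPB explants, against 524, 503 and 541 CPM in WT explants.

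**Figure D2:**
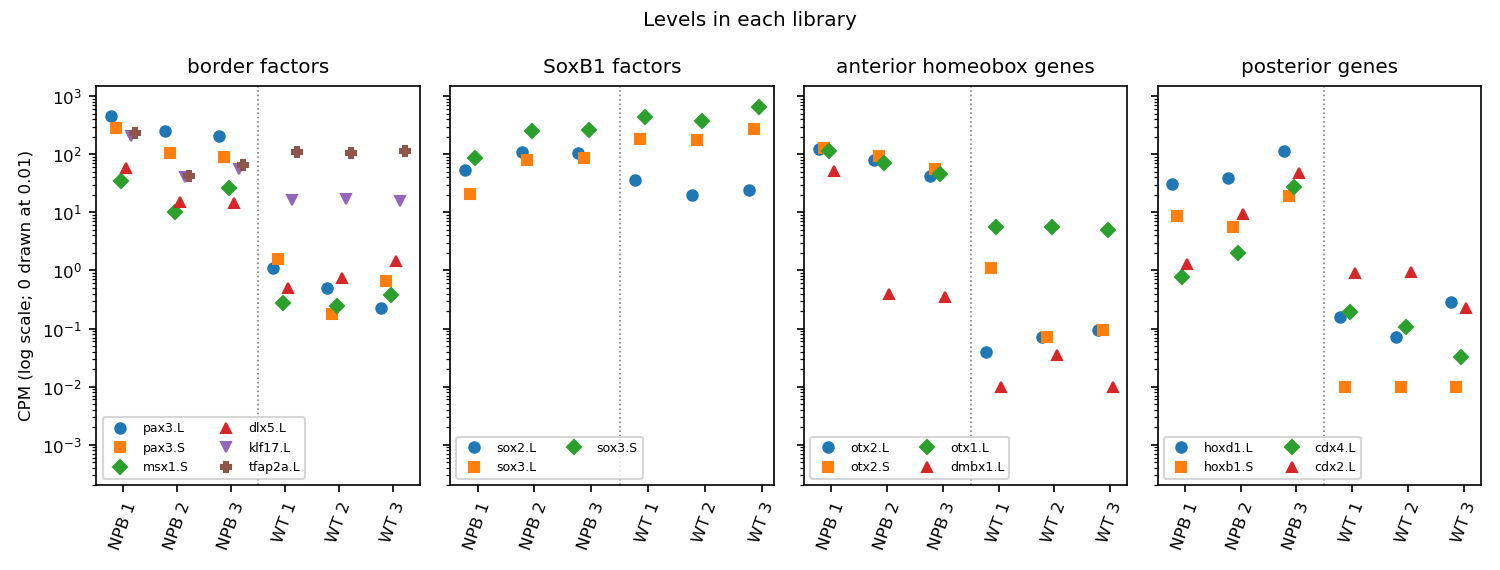
CPM on a log axis in each NPB library (left) and each WT library (right) for border factors, SoxB1 factors, anterior homeobox genes and posterior homeobox genes, 1 marker per gene; values of 0 are drawn at 0.01 CPM. The border and anterior genes plotted are highest in NPB replicate 1, the SoxB1 genes are lowest there, and the Hox and cdx genes are highest in NPB replicate 3.

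Regulators of position along the head to tail axis had the highest medians of all lists other than the injected genes. Members near 0 in WT explants passed the filter only through their NPB counts, so the filter favours high medians here. In the list of Cdx, Irx, Meis, Pbx and related homeobox genes, 24 of 32 tested genes were higher and 1 lower, with a median of 4.61 (3.91 with library totals). Genes of both ends rose. Otx2.L, the homeobox factor of forebrain and midbrain, had 121, 80.3 and 42.6 CPM in NPB explants, against 0.0388, 0.07097 and 0.0959 CPM in WT explants (adjusted p = 3.2e-05). Otx1.L had 112, 69.5 and 46.5 CPM in NPB explants, against 5.698, 5.54 and 4.92 CPM in WT explants (adjusted p = 9.99e-05, log2 fold change 4.55 ± 0.40). Gbx2, which abuts Otx2 at the midbrain and hindbrain boundary, is listed as gbx2.1 and gbx2.2 on each subgenome, all 4 called higher, and gbx2.1.S had 16.7, 41.6 and 62.1 CPM in NPB explants, against 0, 0.142 and 0 CPM in WT explants (adjusted p = 0.000109, log2 fold change 10.26 ± 0.89).

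For the hindbrain and trunk, 5 of the 7 Hox genes that passed the filter were called higher and 57 of the 64 Hox genes in the files were below it. Hoxb1.S and hoxd1.L passed it only through their NPB counts, so they could not have been called lower. Hoxb1.S was at 8.65, 5.57 and 18.8 CPM in NPB explants and at 0 in all WT libraries, at least 165-fold higher against a floor of 3 counts per library (adjusted p = 0.000249). Hoxd1.L had 31.4, 38.6 and 114 CPM in NPB explants, against 0.155, 0.07097 and 0.288 CPM in WT explants (adjusted p = 8.17e-05, log2 fold change 9.07 ± 0.73). Meis3.L, a Hox cofactor of the posterior neural plate, had 94.6, 151 and 210.3 CPM in NPB explants, against 2.403, 1.14 and 0.256 CPM in WT explants (adjusted p = 0.000203, log2 fold change 7.60 ± 0.74). Pbx2.L, another Hox cofactor, had 657, 436 and 519 CPM in NPB explants, against 44.8, 46.3 and 46.2 CPM in WT explants (adjusted p = 2.13e-05, log2 fold change 4.26 ± 0.23). The caudal genes, which act behind the most anterior Hox genes, differed widely among the NPB libraries: cdx4.L had 0.786, 1.97 and 27.6 CPM in NPB explants, against 0.194, 0.106 and 0.03195 CPM in WT explants (adjusted p = 0.00688, log2 fold change 7.12 ± 1.58). Cdx2.L had 1.301, 9.24 and 48.4 CPM in NPB explants, against 0.892, 0.923 and 0.224 CPM in WT explants (adjusted p = 0.00871, log2 fold change 5.48 ± 1.28). Both were still called without replicate 3, the highest library, with adjusted p = 0.0058 for cdx4.L and 0.0143 for cdx2.L. Both calls were lost with limma-voom (adjusted p = 0.0605 for cdx4.L and 0.0713 for cdx2.L) and under a filter of only 1 count in total (0.0607 and 0.0765), and that of cdx2.L also with the replicate number as a block (0.051).

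The NPB libraries differed from each other along the same axis. Replicate 1 was highest for otx2.L, otx2.S, otx1.L and otx1.S, whereas replicate 3 was highest for hoxb1.S, hoxd1.L and every called cdx gene. Dmbx1.L, a homeobox factor of the presumptive midbrain, was at 52.5 CPM in replicate 1 and below 1 CPM in the other NPB libraries, against 0, 0.0355 and 0 CPM in WT explants, so that its mean rests on replicate 1 (adjusted p = 0.0156, and 0.00834 without that library). Its call was lost without WT replicate 2 (adjusted p = 0.067) or 3 (0.0541). Foxb1.S, a forkhead factor of the neural plate, was lowest in replicate 1, with 6.15, 68.5 and 65.6 CPM in NPB explants, against 1.01, 0.177 and 0.128 CPM in WT explants (adjusted p = 0.00143, log2 fold change 7.41 ± 1.16). Sall2.L, a zinc finger factor, was likewise highest in replicate 1, with 29.1, 2.37 and 2.74 CPM in NPB explants, against 0.0775, 0 and 0.03195 CPM in WT explants (adjusted p = 0.00251, and 0.0012 without replicate 1). Leaving out replicate 3, the list of Hox and Cdx factors had 9 of 13 genes called higher instead of 10, with a median of 4.29 instead of 6.46; leaving out replicate 1, it had 13 of 16, with a median of 5.88. The labels give no region or clutch for a library, and their part in these differences was not tested.

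**Figure D3:**
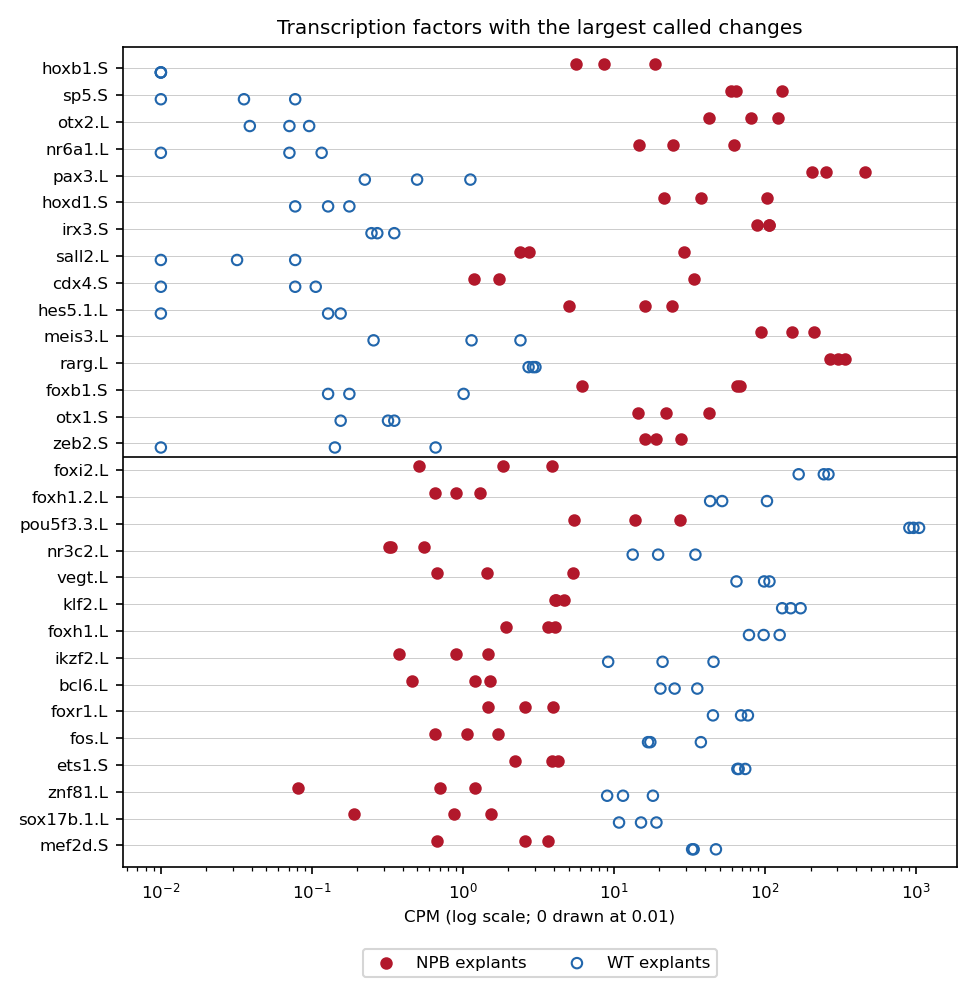
Transcription factors with the largest called changes in each direction: CPM on a log axis in each NPB library (filled circles) and each WT library (open circles), with 0 drawn at 0.01 CPM. The upper genes lie at 1.19 CPM or more in NPB explants and at 3.02 CPM or less in WT explants; the lower genes lie at 27.5 CPM or less in NPB explants and at 9.01 CPM or more in WT explants.

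Target genes of Wnt signalling were higher in NPB explants. Of the target and feedback list, 19 of 31 tested genes were higher and 2 lower, with a median of 2.16 (1.47 with library totals). Sp5.L, whose gene is a direct target of Wnt/β-catenin, had 168, 245 and 407 CPM in NPB explants, against 0.155, 0.284 and 0.543 CPM in WT explants (adjusted p = 2.05e-05, log2 fold change 10.32 ± 0.52). Axin2, the feedback scaffold, had for axin2.L 145, 115 and 209 CPM in NPB explants, against 16.4, 19.2 and 17.99 CPM in WT explants (adjusted p = 3.3e-05, log2 fold change 3.82 ± 0.25). Lef1.L, a nuclear partner of β-catenin, had 4.09, 4.54 and 13.4 CPM in NPB explants, against 0.271, 0.142 and 0.0959 CPM in WT explants (adjusted p = 0.000233, log2 fold change 6.08 ± 0.67). Each of these was highest in NPB replicate 3, like the posterior genes, whereas wnt8a.L itself was highest in replicate 2. Without replicate 1 the list had 23 genes called higher, 2 lower and a median of 3.16. Not every inhibitor in the list rose: nkd1.S, a feedback antagonist, had 0.651, 1.03 and 0.4300 CPM in NPB explants, against 12.3, 12.99 and 17.1 CPM in WT explants (adjusted p = 0.00028, log2 fold change −3.64 ± 0.42). Among Wnt ligands, receptors and secreted modulators, 15 of 40 tested genes were higher and 5 lower. The higher genes include wnt8a.L, whose counts cannot be divided between injected mRNA and endogenous transcript. The non-canonical receptor ror2.L had 191, 246 and 282 CPM in NPB explants, against 1.28, 0.781 and 0.288 CPM in WT explants (adjusted p = 2.64e-05, log2 fold change 8.96 ± 0.49). Fzd10.S had 36.9, 26.8 and 50.5 CPM in NPB explants, against 0.814, 0.461 and 1.34 CPM in WT explants (adjusted p = 5.49e-05, log2 fold change 6.12 ± 0.46). Fzd5.L was lower, with 0.678, 1.37 and 1.35 CPM in NPB explants, against 10.9, 6.81 and 9.91 CPM in WT explants (adjusted p = 0.00148, log2 fold change −2.35 ± 0.39).

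Receptors, co-receptors and transcription factors of the Hedgehog pathway were higher, whereas gli1 was not called. Of the Hedgehog list, 13 of 21 tested genes were higher and 0 lower, with a median of 2.39. Gli3.L, a transcription factor that mostly represses in the absence of ligand, had 90.95, 62.2 and 73.3 CPM in NPB explants, against 1.16, 1.597 and 0.447 CPM in WT explants (adjusted p = 4.83e-05, log2 fold change 6.86 ± 0.48). The co-receptors gas1.S and cdon.L rose, with gas1.S at 59.7, 166 and 170.1 CPM in NPB explants, against 24.6, 29.7 and 29.8 CPM in WT explants (adjusted p = 0.000357, log2 fold change 2.90 ± 0.35). Ptch1.L, receptor and target, had 31.9, 34.5 and 19.8 CPM in NPB explants, against 4.15, 6.104 and 4.15 CPM in WT explants (adjusted p = 0.000157, log2 fold change 3.29 ± 0.33). The groups did not overlap for these 3 genes. Gli1, a common target, was not called for gli1.L (adjusted p = 0.255) or gli1.S (adjusted p = 0.478, and 0.0482 without WT replicate 2), and its groups overlapped.

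Notch receptors, ligands and modulators were mostly higher, and effectors moved both ways. In the Notch list 30 of 49 tested genes were higher and 6 lower (median 1.88). Notch2.L had 7.81, 5.24 and 3.67 CPM in NPB explants, against 0.465, 0.568 and 0.288 CPM in WT explants (adjusted p = 0.00031, log2 fold change 4.38 ± 0.52). The ligand dll1.L had 54.2, 17.8 and 25.1 CPM in NPB explants, against 0.969, 1.24 and 2.43 CPM in WT explants (adjusted p = 0.00038, log2 fold change 5.11 ± 0.61). Lfng.S, a glycosyltransferase that tunes which ligand a receptor answers to, had 104, 118 and 132 CPM in NPB explants, against 36.1, 31.8 and 43.8 CPM in WT explants (adjusted p = 6.39e-05, log2 fold change 2.35 ± 0.19). Among effectors, hes5.1.L had 5.04, 16.1 and 24.2 CPM in NPB explants, against 0.155, 0 and 0.128 CPM in WT explants (adjusted p = 0.000272, log2 fold change 7.91 ± 0.88). The effectors hes2.L and hey1.L fell instead, with hes2.L at 0.136, 0.2002 and 0.389 CPM in NPB explants, against 8.72, 7.91 and 11.9 CPM in WT explants (adjusted p = 0.000187, log2 fold change −4.59 ± 0.48).

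In the retinoic acid pathway, some receptors, carriers and degrading enzymes rose, and both homeologs of aldh1a2, whose enzyme makes retinoic acid, fell. Of that list, 15 of 25 tested genes were higher and 3 lower, with a median of 1.69 that became 0.80 with at least 10 counts in every library and 0.07 with L and S counts summed. Rarg.L, a receptor, had 339, 269 and 304 CPM in NPB explants, against 3.02, 2.91 and 2.72 CPM in WT explants (adjusted p = 8.07e-06, log2 fold change 7.42 ± 0.23). Crabp2.L, which carries retinoic acid to receptors, had 256, 116 and 211 CPM in NPB explants, against 0.271, 0.07097 and 0.383 CPM in WT explants (adjusted p = 3.2e-05, log2 fold change 10.32 ± 0.60). The hydroxylases that clear retinoic acid rose, with cyp26a1.L at 237, 183 and 162 CPM in NPB explants, against 22.4, 14.6 and 19.6 CPM in WT explants (adjusted p = 4.17e-05, log2 fold change 4.07 ± 0.28) and cyp26c1.S at 161, 30.4 and 25.8 CPM in NPB explants, against 0.194, 0.177 and 0.0639 CPM in WT explants (adjusted p = 0.000433, log2 fold change 9.72 ± 1.15). Aldh1a2.L, a retinaldehyde dehydrogenase that makes retinoic acid, had 2.93, 6.54 and 7.96 CPM in NPB explants, against 59.9, 61.2 and 69.9 CPM in WT explants (adjusted p = 0.000308, log2 fold change −2.79 ± 0.33). Another retinaldehyde dehydrogenase gene, aldh1a1.L, was called higher from low counts, with 0.596, 2.87 and 0.553 CPM in NPB explants, against 0, 0.0355 and 0.0639 CPM in WT explants (adjusted p = 0.00246). Aldh1a1.L passed the filter only through its NPB counts, so it could not have been called lower. All NPB libraries were below all WT libraries for both aldh1a2 homeologs and above them for rarg, crabp2, cyp26a1 and cyp26c1.

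In the BMP list, ligands, receptors and effectors moved in different directions: 11 of 43 tested genes were higher and 16 lower, with a median of −0.45 (0.07 without WT replicate 3). The receptor bmpr1b.S had 128, 37.8 and 82.9 CPM in NPB explants, against 1.55, 8.45 and 2.62 CPM in WT explants (adjusted p = 0.00137, log2 fold change 5.04 ± 0.78). The ligand bmp4.S had 57.5, 61.3 and 66.4 CPM in NPB explants, against 22.1, 24.6 and 27.2 CPM in WT explants (adjusted p = 9.84e-05, log2 fold change 2.02 ± 0.18). Id3.L, a common BMP target, had 597, 271 and 426 CPM in NPB explants, against 131, 93.97 and 126 CPM in WT explants (adjusted p = 0.000499, log2 fold change 2.60 ± 0.33). Gata2.L, a BMP target of ventral ectoderm, had 20.9, 3.204 and 1.45 CPM in NPB explants, against 0.0388, 0.07097 and 0.128 CPM in WT explants (adjusted p = 0.00266, log2 fold change 7.42 ± 1.33). Replicate 1 held most of it, and it was still called without that library (adjusted p = 0.00131). The effector smad1.L, which carries the BMP signal to the nucleus, had 10.7, 9.28 and 11.47 CPM in NPB explants, against 148, 129.6 and 188 CPM in WT explants (adjusted p = 4.51e-05, log2 fold change −3.20 ± 0.23). The ligand bmp2.S had 0.949, 1.64 and 1.95 CPM in NPB explants, against 17.3, 23.5 and 23.7 CPM in WT explants (adjusted p = 0.000179, log2 fold change −3.15 ± 0.33). The decoy receptor bambi.S, which tracks BMP activity, had 4.77, 1.67 and 2.87 CPM in NPB explants, against 34.7, 31.8 and 35.8 CPM in WT explants (adjusted p = 0.000981, log2 fold change −2.73 ± 0.42). Thus a ligand and a target gene fell while others rose. Id2.S, a relative of id3, fell, with 27.8, 11.4 and 6.53 CPM in NPB explants, against 122.7, 137 and 203 CPM in WT explants (adjusted p = 0.00672, log2 fold change −2.59 ± 0.57).

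Nodal and TGF-β genes were lower more often than higher. Of the list, 5 of 31 tested genes were higher and 17 lower (median −1.05). Foxh1, the forkhead partner of Smad2 on Nodal targets, was called lower for all 3 copies tested: foxh1.L had 1.92, 3.64 and 4.095 CPM in NPB explants, against 97.9, 78.3 and 125 CPM in WT explants (adjusted p = 5.39e-05, log2 fold change −4.29 ± 0.32). Foxh1.2.L had 0.651, 0.901 and 1.29 CPM in NPB explants, against 43.3, 52.02 and 103 CPM in WT explants (adjusted p = 6.7e-05, log2 fold change −5.43 ± 0.44). The feedback antagonist lefty.L had 0.136, 0.834 and 0.921 CPM in NPB explants, against 6.05, 12.7 and 4.89 CPM in WT explants (adjusted p = 0.00666, log2 fold change −2.98 ± 0.68). The copies of the co-Smad shared by both pathways moved apart. Smad4.1.S had 2140.2, 3108 and 2037 CPM in NPB explants, against 461, 538 and 529.9 CPM in WT explants (adjusted p = 3.37e-05, log2 fold change 2.94 ± 0.19), while all 4 smad4.2 entries tested were called lower, among them smad4.2.L (gene47893) with 1.65, 4.91 and 5.98 CPM in NPB explants, against 24.7, 29.7 and 35.6 CPM in WT explants (adjusted p = 0.00282, log2 fold change −2.19 ± 0.42). The FGF list was near the background, where 11 of 34 tested genes were higher and 7 lower. The receptor fgfr4.L had 461, 202 and 238 CPM in NPB explants, against 53.9, 60.3 and 63.7 CPM in WT explants (adjusted p = 0.000382, log2 fold change 3.07 ± 0.37). Spry1.S, a feedback inhibitor, had 0.542, 1.27 and 2.35 CPM in NPB explants, against 18.1, 18.6 and 18.2 CPM in WT explants (adjusted p = 0.000958, log2 fold change −3.05 ± 0.47). Dusp6 and etv4, common readouts of ERK activity, were not called, with adjusted p = 0.372 for dusp6.S (0.026, higher, without NPB replicate 1) and 0.609 for etv4.L.

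Pluripotency genes moved apart within families. In that list 8 of 28 tested genes were higher and 10 lower, and the median of 0.42 became −0.26 with library totals. Pou5f3.3.S, the maternal form, had 4.17, 7.64 and 21.5 CPM in NPB explants, against 478, 574 and 605 CPM in WT explants (adjusted p = 0.000377, log2 fold change −4.98 ± 0.57). Pou5f3.1.S had 201, 416 and 429 CPM in NPB explants, against 39.5, 24.9 and 53.1 CPM in WT explants (adjusted p = 0.000147, log2 fold change 3.82 ± 0.36). Pou5f3.2.L, the remaining form, had 132, 740.3 and 630.1 CPM in NPB explants, against 611, 524 and 691 CPM in WT explants and was not called (adjusted p = 0.566). It was low in replicate 1, and without that library it was called higher (log2 fold change 0.79, adjusted p = 0.0066). The Krüppel-like factor klf2.L had 4.15, 4.64 and 4.07 CPM in NPB explants, against 129.8, 172 and 148 CPM in WT explants (adjusted p = 1.82e-05, log2 fold change −4.43 ± 0.21). Its relative klf17.L, which belongs to the border list and not to this one, had 205, 41.1 and 54.8 CPM in NPB explants, against 16.1, 17.1 and 15.8 CPM in WT explants (adjusted p = 0.00403, log2 fold change 3.38 ± 0.66). Of the Nanog-like ventx genes, ventx2.2.L had 141, 60.4 and 125 CPM in NPB explants, against 21.4, 25.6 and 20.6 CPM in WT explants (adjusted p = 0.00031, log2 fold change 2.99 ± 0.35), while ventx3.2.L was at 0, 0 and 0.0205 CPM in NPB explants, against 2.02, 3.37 and 0.863 CPM in WT explants (adjusted p = 0.000826). Lin28a.L, an RNA-binding protein that blocks let-7 maturation, had 160.4, 225 and 299.9 CPM in NPB explants, against 9.65, 7.52 and 4.44 CPM in WT explants (adjusted p = 3.26e-05, log2 fold change 5.66 ± 0.36). Its relative lin28b.S had 3.47, 4.84 and 7.19 CPM in NPB explants, against 21.3, 26.3 and 26.1 CPM in WT explants (adjusted p = 0.00231, log2 fold change −1.58 ± 0.29).

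Cyclins and their kinases also moved both ways. Of the mitosis list, 35 of 115 tested genes were higher and 35 lower, close to the shares over all genes. Ccnb1.S, a maternally supplied cyclin B, had 4.88, 13.5 and 23.5 CPM in NPB explants, against 761, 835 and 997 CPM in WT explants (adjusted p = 0.000205, log2 fold change −5.30 ± 0.52). Ccna1.S, the cyclin A of the cleavage divisions, had 3.17, 4.47 and 20 CPM in NPB explants, against 406, 466 and 592 CPM in WT explants (adjusted p = 0.000833, log2 fold change −5.07 ± 0.70). Ccnb3.S, in contrast, had 223, 312 and 279 CPM in NPB explants, against 21.3, 15.3 and 21.3 CPM in WT explants (adjusted p = 1.82e-05, log2 fold change 4.50 ± 0.21). For none of these cyclins did the groups overlap. Of the kinases that hold Cdk1 inactive, wee2.L, the oocyte form, had 2.14, 4.71 and 10.7 CPM in NPB explants, against 133, 119.8 and 163 CPM in WT explants (adjusted p = 0.00061, log2 fold change −3.91 ± 0.52). Wee1.L had 38.4, 48.99 and 31.3 CPM in NPB explants, against 12.02, 10.1 and 10.7 CPM in WT explants (adjusted p = 0.000138, log2 fold change 2.55 ± 0.25). Cdc25a.L, the phosphatase that drives the rapid cleavage cycles, had 87.2, 51.5 and 63.9 CPM in NPB explants, against 425, 456 and 587 CPM in WT explants (adjusted p = 0.000377, log2 fold change −2.14 ± 0.27). Of regulators of the G1 phase, which cleaving embryos lack, and cell cycle inhibitors, 18 of 44 tested genes were higher and 10 lower. By at least 4-fold, 10 were higher and 2 lower (ccng2.L and e2f1.S). The pocket protein rbl1.L had 131, 104 and 98.4 CPM in NPB explants, against 14.4, 12.03 and 11.47 CPM in WT explants (adjusted p = 3.2e-05, log2 fold change 3.85 ± 0.24). Ccnd1.S (cyclin D1) had 12.04, 13.5 and 10.01 CPM in NPB explants, against 5.62, 5.43 and 2.01 CPM in WT explants (adjusted p = 0.00313, log2 fold change 2.15 ± 0.42). In the DNA replication list 15 of 74 tested genes were higher (20.3%) and 21 lower (28.4%), not far from the shares over all genes, with a median of −0.22. By at least 4-fold, 1 was higher (mcm5.S) and 6 lower. The licensing factor cdc6.S, the largest fall of the list, had 30.5, 24.3 and 42.8 CPM in NPB explants, against 607, 551 and 573 CPM in WT explants (adjusted p = 3.29e-05, log2 fold change −3.46 ± 0.22).

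**Figure D4:**
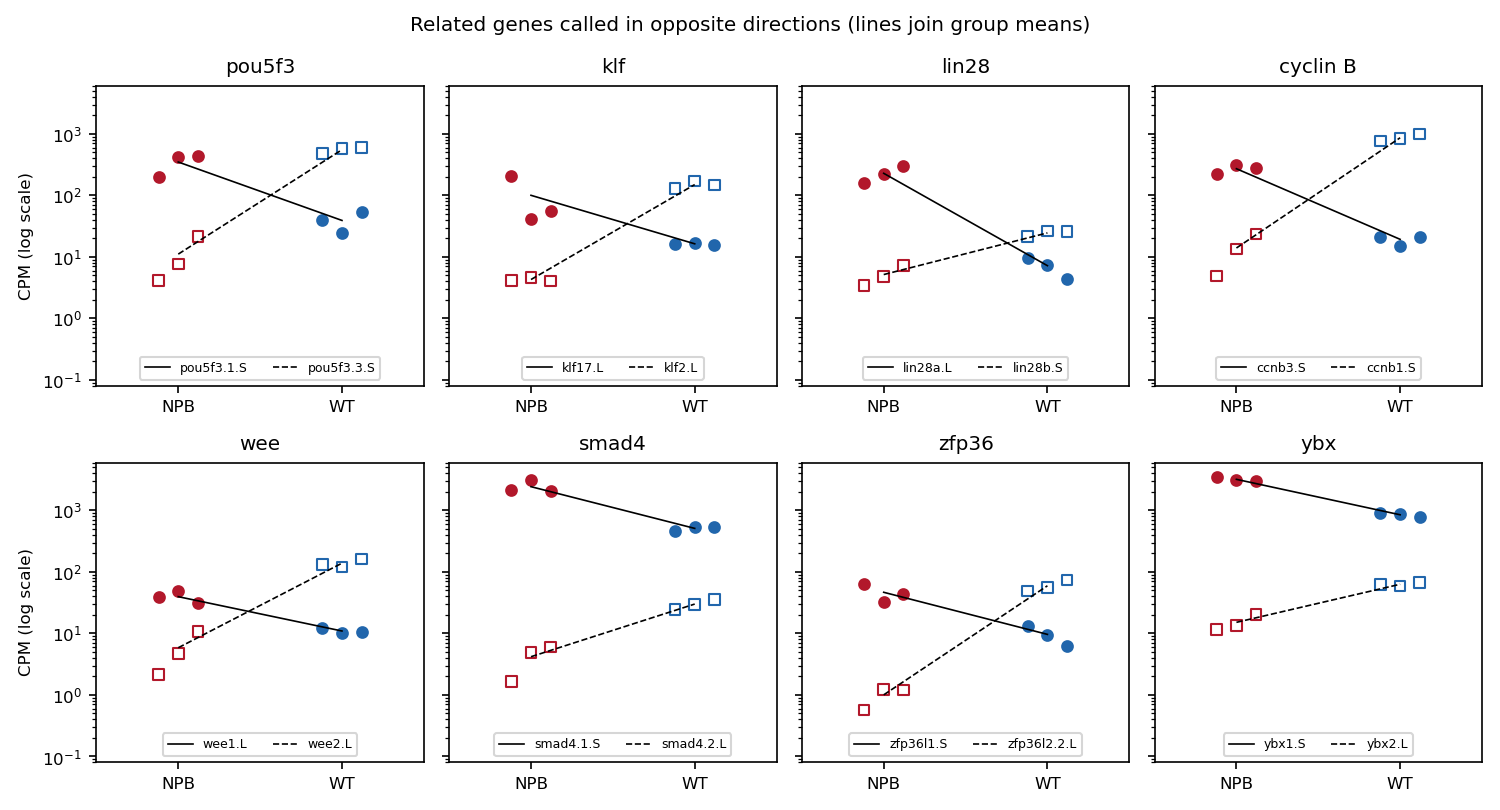
Related genes called in opposite directions: CPM on a log axis in each NPB library (left, red) and each WT library (right, blue), with filled circles for the gene that is higher and open squares for the gene that is lower in NPB explants, and lines that join group means. In all 8 panels the groups do not overlap for either gene.

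Maternal and oocyte genes were mostly lower: 2 of 40 tested genes were higher and 24 lower, with a median of −1.57. Their summed level was 664, 1005 and 903 CPM in NPB explants, against 3059, 3241 and 3165 CPM in WT explants. The genes called lower include several entries named gdf1.L, which may share reads. Btg4.S, an adaptor that recruits deadenylases to maternal mRNAs, had 0.542, 2.04 and 8.35 CPM in NPB explants, against 96.2, 120.4 and 90.6 CPM in WT explants (adjusted p = 0.00411, log2 fold change −4.16 ± 0.82). Mos.L, the kinase that arrests the egg, had 10.1, 13.6 and 16.7 CPM in NPB explants, against 121, 119 and 132 CPM in WT explants (adjusted p = 6.49e-05, log2 fold change −2.53 ± 0.20). Zar2.L had 5.91, 17.95 and 14.9 CPM in NPB explants, against 149, 284 and 148 CPM in WT explants (adjusted p = 0.000578, log2 fold change −3.24 ± 0.43). Cpeb1.L, which controls cytoplasmic polyadenylation, had 0.786, 0.734 and 6.78 CPM in NPB explants, against 59.7, 91.4 and 148 CPM in WT explants (adjusted p = 0.00427, log2 fold change −4.50 ± 0.90). The groups did not overlap for any of these genes, and btg4.S, mos.L and cpeb1.L were highest in replicate 3 among the NPB libraries. The germ cell gene ddx4.L (Vasa) was nearly level in CPM, at 181, 183 and 186 CPM in NPB explants, against 189.8, 196 and 148 CPM in WT explants, and its call (adjusted p = 0.00519, log2 fold change 0.74 ± 0.16) was a rise under TMM scaling.

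Regulators of mRNA stability and translation moved both ways. In that list 35 of 98 tested genes were higher (35.7%) and 30 lower (30.6%), not far from the 26.9% and 26.7% over all genes. By at least 4-fold, 10 were higher and 15 lower, where the shares over all genes were 12.6% and 10.3%. The decay factor zfp36l2.2.L had 0.569, 1.23 and 1.21 CPM in NPB explants, against 48.8, 56.2 and 73.4 CPM in WT explants (adjusted p = 3.62e-05, log2 fold change −5.21 ± 0.35). Its relative zfp36l1.S had 63.5, 32.3 and 44.04 CPM in NPB explants, against 13.1, 9.47 and 6.36 CPM in WT explants (adjusted p = 0.000465, log2 fold change 2.99 ± 0.39). Patl2.L, an oocyte translational repressor, had 2.47, 7.31 and 9.58 CPM in NPB explants, against 126, 117 and 117 CPM in WT explants (adjusted p = 0.000318, log2 fold change −3.56 ± 0.42). These 3 did not overlap between the groups. Trim71.S, a stem cell repressor of mRNAs, had 145, 174 and 216 CPM in NPB explants, against 17.8, 23.9 and 25.1 CPM in WT explants (adjusted p = 2.64e-05, log2 fold change 3.68 ± 0.21). The masking protein of oocytes ybx2.L fell, with 11.7, 13.6 and 20.1 CPM in NPB explants, against 61.9, 59.05 and 67.9 CPM in WT explants (adjusted p = 0.00131, log2 fold change −1.38 ± 0.22), and the somatic ybx1.S rose, with 3516, 3071 and 2998 CPM in NPB explants, against 892, 857 and 794 CPM in WT explants (adjusted p = 3.02e-05, log2 fold change 2.62 ± 0.16).

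Chromatin genes moved both ways. The oocyte linker histone h1-8.L had 4.04, 12.98 and 13.6 CPM in NPB explants, against 307, 269.7 and 379 CPM in WT explants (adjusted p = 0.000169, log2 fold change −4.31 ± 0.42). Its homeolog h1-8.S had 66.5, 379 and 126 CPM in NPB explants, against 592, 519 and 642 CPM in WT explants and was not called (adjusted p = 0.171); without NPB replicate 2, the highest, it was called lower (adjusted p = 0.0014). The linker histone h1-10.S had 74.4, 55.9 and 101 CPM in NPB explants, against 21.8, 19.4 and 21.4 CPM in WT explants (adjusted p = 0.000132, log2 fold change 2.58 ± 0.25). Of DNA methylation genes, 6 of 20 tested genes were higher and 8 lower, and of chromatin remodelers, 27 of 55 tested genes were higher and 9 lower. Dnmt1.L, the maintenance DNA methyltransferase, had 41.4, 54.5 and 54.2 CPM in NPB explants, against 312, 362 and 326 CPM in WT explants (adjusted p = 5.21e-05, log2 fold change −2.05 ± 0.15). Hells.L, a remodeler that aids DNA methylation, had 32.3, 18.6 and 28.5 CPM in NPB explants, against 279.8, 291 and 343 CPM in WT explants (adjusted p = 0.000115, log2 fold change −2.82 ± 0.26). Among Polycomb genes, 8 of 48 tested genes were higher and 18 lower (median −0.34). The methyltransferase ezh2.L had 447, 392 and 384 CPM in NPB explants, against 314, 283 and 267 CPM in WT explants (adjusted p = 0.000569, log2 fold change 1.2 ± 0.16). Xpo6.L, which exports actin from the nucleus and is absent from oocytes of X. laevis, had 4.61, 20.4 and 17.8 CPM in NPB explants, against 253, 231 and 414 CPM in WT explants (adjusted p = 0.000905, log2 fold change −3.74 ± 0.53).

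Ribosomal protein genes had the largest share of calls of all lists. Of the cytosolic ribosomal proteins, 138 of 140 tested genes were higher and 0 lower, with a median of 1.88; with library totals 118 were higher, none lower and the median was 1.17. Together they took 18668, 12292 and 14929 CPM in NPB explants, against 7132, 7644 and 6065 CPM in WT explants. Rps2.L had 225, 161 and 162 CPM in NPB explants, against 35.1, 41.98 and 25.5 CPM in WT explants (adjusted p = 8.87e-05, log2 fold change 3.13 ± 0.27). Rpl3.L, the member with the most counts, had 739, 449.5 and 488 CPM in NPB explants, against 272, 325 and 201 CPM in WT explants (adjusted p = 0.00118, log2 fold change 1.79 ± 0.28). NPB replicate 1 was the highest for each. Of the mitochondrial ribosomal proteins, 15 of 99 tested genes were higher and 16 lower, with a median of 0.03 (−0.66 with library totals). Mrps11.L was lower, with 0.569, 1.37 and 1.04 CPM in NPB explants, against 11.2, 12.3 and 12.37 CPM in WT explants (adjusted p = 0.000427, log2 fold change −2.92 ± 0.37).

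Ribosome assembly and splicing genes were higher as well. In the ribosome biogenesis list, 73 of 90 tested genes were higher and 2 lower (median 1.12, and 0.40 with library totals). Ncl.S (nucleolin), an organiser of the nucleolus, had 3452, 2685 and 2846 CPM in NPB explants, against 866, 944 and 846 CPM in WT explants (adjusted p = 4.68e-05, log2 fold change 2.47 ± 0.18). Utp15.L, of the small subunit processome, had 124, 73.1 and 81.2 CPM in NPB explants, against 12.6, 11.50 and 12.1 CPM in WT explants (adjusted p = 6.49e-05, log2 fold change 3.66 ± 0.29). For splicing, 115 of 138 tested genes were higher and 3 lower (median 1.21, and 0.51 with library totals). The splicing factor srsf2.L had 4530.4, 4088 and 4349 CPM in NPB explants, against 950.4, 881 and 945 CPM in WT explants (adjusted p = 1.82e-05, log2 fold change 2.92 ± 0.14). Hnrnpa1.L had 3959, 3155 and 3517 CPM in NPB explants, against 943, 939.8 and 742 CPM in WT explants (adjusted p = 3.64e-05, log2 fold change 2.72 ± 0.18). The list summed to 73632, 67188 and 69154 CPM in NPB explants, against 36163, 34507 and 33335 CPM in WT explants. Of the proteasome list, 49 of 78 tested genes were higher and 1 lower, but with library totals 18 were higher and 7 lower and the median of 0.75 became 0.05. The chaperone list was mixed: 44 of 111 tested genes were higher and 25 lower. Hspa8.L, the constitutive Hsp70, had 6402, 4806 and 4726 CPM in NPB explants, against 682, 995 and 697 CPM in WT explants (adjusted p = 4.23e-05, log2 fold change 3.46 ± 0.24).

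Pathways of energy and lipid metabolism had other shares of calls. For oxidative phosphorylation, 47 of 132 tested genes were higher and 6 lower, and the median of 0.49 turned to −0.20 with library totals. For glycolysis, 1 of 30 tested genes was higher and 9 lower, with a median of −0.09. The share called lower, 30%, was near the 26.7% over all genes, and the share called higher, 3.33%, was below the 26.9%. Pgk1.L, phosphoglycerate kinase, had 7.699, 21.7 and 26.9 CPM in NPB explants, against 182, 171 and 229 CPM in WT explants (adjusted p = 0.000795, log2 fold change −2.71 ± 0.39). Gpi.L, which opens the pathway after hexokinase, had 15.1, 26.8 and 37.1 CPM in NPB explants, against 174, 231 and 210.5 CPM in WT explants (adjusted p = 0.000369, log2 fold change −2.29 ± 0.28). For cholesterol synthesis, 1 of 35 tested genes was higher and 19 lower, with a median of −1.05. The transcription factor that drives these genes in mammals was also lower, and srebf2.L had 2.304, 3.94 and 4.26 CPM in NPB explants, against 47.4, 36.4 and 49.9 CPM in WT explants (adjusted p = 0.000122, log2 fold change −3.0 ± 0.28). Its partner in sterol sensing, insig1.L, had 0.298, 1.201 and 1.35 CPM in NPB explants, against 7.37, 9.404 and 9.33 CPM in WT explants (adjusted p = 0.00395, log2 fold change −2.53 ± 0.52). For autophagy and lysosome genes, 11 of 67 tested genes were higher and 26 lower (median −0.34).

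Cadherins of neural and of epidermal tissue were both higher. Cdh2.L (N-cadherin), of neural tissue, had 13.3, 7.88 and 15.9 CPM in NPB explants, against 0.0775, 0.106 and 0.0959 CPM in WT explants (adjusted p = 3.08e-05). Cdh1.S (E-cadherin), of epidermis, had 309, 340.3 and 204 CPM in NPB explants, against 22.1, 19.2 and 17.2 CPM in WT explants (adjusted p = 2.86e-05, log2 fold change 4.57 ± 0.27). Cdh3.L, which carries adhesion in the blastula, was present throughout, with 356, 479 and 494 CPM in NPB explants, against 299.7, 289.6 and 254 CPM in WT explants (adjusted p = 0.000211, log2 fold change 1.34 ± 0.15). Of extracellular matrix genes, 23 of 53 tested genes were higher and 3 lower (median 1.60), with 81 more below the filter. The basement membrane gene lamb1.L had 269, 159 and 198 CPM in NPB explants, against 0.155, 0.248 and 0 CPM in WT explants (adjusted p = 3.2e-05, log2 fold change 11.31 ± 0.66). Its partner lamc1.L had 48.9, 43.4 and 55.1 CPM in NPB explants, against 17.4, 13.2 and 22.2 CPM in WT explants (adjusted p = 0.000282, log2 fold change 2.17 ± 0.25). Ephrins and their receptors keep cells apart at tissue boundaries, and in that list 14 of 27 tested genes were higher and 4 lower. The membrane-bound ligand efnb2.L had 37.03, 92.8 and 117 CPM in NPB explants, against 2.48, 2.2 and 1.73 CPM in WT explants (adjusted p = 5.38e-05, log2 fold change 5.93 ± 0.44). Efna5.L, an anchored ligand of the A class, had 0.1898, 0.133 and 0.4095 CPM in NPB explants, against 4.92, 5.15 and 7.13 CPM in WT explants (adjusted p = 0.000611, log2 fold change −3.83 ± 0.53). The B-class ephrins efnb1.L, efnb2.L and efnb3.L were all called higher. C3.L, the central complement component, which attracts migrating crest cells of Xenopus to each other, had 1645, 1376 and 1439.8 CPM in NPB explants, against 3.37, 0.958 and 0.0639 CPM in WT explants (adjusted p = 0.000218, log2 fold change 10.72 ± 1.07).

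Over all 973 listed transcription factors that were tested, 332 were higher and 253 lower, with a median of 0.13 (−0.57 with library totals). Families differed widely. Dlx and Msx genes (10 of 12 tested genes were higher and 1 lower, median 4.17) and Zic and Gli genes (12 of 17 tested genes were higher and 0 lower, median 3.82) were gained. Forkhead genes (8 of 47 tested genes were higher and 17 lower, median −0.45) and the AP-1, Atf and Creb families (15 of 67 tested genes were higher and 25 lower, median −0.73) were lowered more often than raised. Foxi2.S, the stored activator of the epidermal factor foxi1, had 0.786, 1.44 and 2.396 CPM in NPB explants, against 132, 159 and 191 CPM in WT explants (adjusted p = 3.37e-05, log2 fold change −6.02 ± 0.39). Fos.L, an immediate early gene, had 0.651, 1.702 and 1.06 CPM in NPB explants, against 37.6, 16.8 and 17.4 CPM in WT explants (adjusted p = 0.000453, log2 fold change −3.73 ± 0.48). Both fell with no overlap between the groups. Sp7.L, best known as a bone factor, had 309, 119 and 130.4 CPM in NPB explants, against 3.02, 3.16 and 2.56 CPM in WT explants (adjusted p = 7.47e-05, log2 fold change 6.74 ± 0.52). Nr6a1.L (gene47438), the germ cell nuclear factor that is required in Xenopus neurulation and represses Oct4 in mammals, had 62.5, 14.6 and 24.7 CPM in NPB explants, against 0.116, 0.07097 and 0 CPM in WT explants (adjusted p = 0.000209). Tead4.L, the DNA-binding partner of Yap, had 196, 120.3 and 147 CPM in NPB explants, against 4.11, 4.61 and 2.396 CPM in WT explants (adjusted p = 3.08e-05, log2 fold change 6.10 ± 0.37). The mineralocorticoid receptor nr3c2.L fell, with 0.325, 0.334 and 0.553 CPM in NPB explants, against 13.3, 19.6 and 34.6 CPM in WT explants (adjusted p = 0.000117, log2 fold change −5.09 ± 0.48).

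L and S homeologs mostly moved together, but some did not. Of 5383 pairs with both copies tested, both were called in 2093, and the direction was the same in 1904 (91%), with 969 pairs higher and 935 lower. Across pairs, Pearson's r of the fold changes was 0.646; this is a correlation across genes, and pairs share libraries and much of their sequence. In 189 pairs the copies were called in opposite directions, 107 of them by at least 2-fold each. Among genes of the lists, the transcription factor bcl11b.L had 2.03, 0.934 and 0.717 CPM in NPB explants, against 0.0388, 0 and 0.03195 CPM in WT explants (adjusted p = 0.000883), while bcl11b.S had 0.217, 0.467 and 0.717 CPM in NPB explants, against 8.06, 8.27 and 6.71 CPM in WT explants (adjusted p = 0.000649, log2 fold change −3.36 ± 0.47). The cadherin cdh26.S had 95.8, 66.2 and 93.96 CPM in NPB explants, against 8.53, 6.35 and 9.11 CPM in WT explants (adjusted p = 3.64e-05, log2 fold change 4.12 ± 0.27). Cdh26.L had 0, 0.2002 and 0.0205 CPM in NPB explants, against 5.31, 0.958 and 1.89 CPM in WT explants (adjusted p = 0.011, log2 fold change −4.63 ± 1.18). Creb3l2.L, a transcription factor of the secretory pathway, had 18.8, 9.68 and 7.94 CPM in NPB explants, against 2.83, 3.83 and 4.54 CPM in WT explants (adjusted p = 0.00213, log2 fold change 2.43 ± 0.44). Creb3l2.S had 0.759, 0.901 and 1.003 CPM in NPB explants, against 11.01, 7.03 and 7.13 CPM in WT explants (adjusted p = 0.000752, log2 fold change −2.55 ± 0.37). For none of these 6 copies did the groups overlap.

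**Figure D5:**
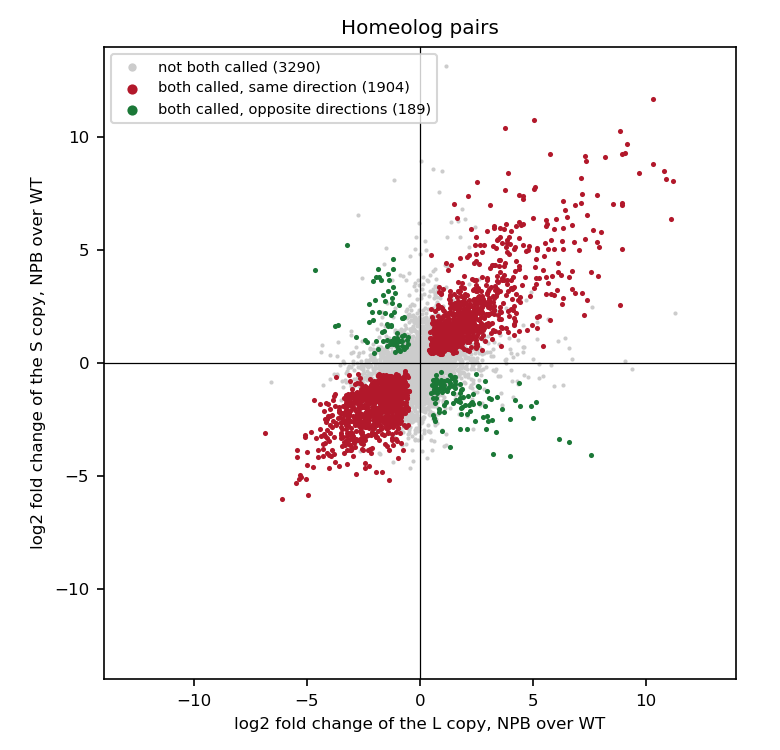
Log2 fold change, NPB over WT explants, of the L copy (x axis) and the S copy (y axis) for 5383 homeolog pairs; coloured points are pairs with both copies called in the same direction (1904) or in opposite directions (189). Most coloured points lie in the lower left and upper right quadrants.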

How the data were processed

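Per the labels and the study's methods, the authors trimmed reads with fastp, aligned them to the X. laevis genome 9.2 with STAR and counted reads per gene with HTSeq. Tool versions, annotation release and strand setting are not given in the sources used here. The deposited values are raw counts for 51061 genes, in 1 table for the NPB libraries and another for the stage 9 libraries, whose gene names match row by row. 482 names occur more than once, and near-identical homeologs, repeated names, overlapping genes and antisense genes may share reads. Entries that share a name were counted as separate genes in the lists. Deposited TPM values, which cover NPB libraries alone, and a table of the authors' own fold changes and p-values were not used.

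Groups were compared with edgeR 4.0.16 in R 4.3.3, using its quasi-likelihood test with robust dispersion, filterByExpr, TMM scaling, Benjamini-Hochberg adjustment over all genes tested and a call at 0.05. SEs are approximate, from the fold change and its F statistic. Levels are CPM of the library total and not per gene length. Depth limits low genes: 3 counts are 0.0614 to 0.116 CPM. Alternatives were DESeq2 1.42.0, limma-voom 3.58.1, other scalings, filters and a stricter threshold, the replicate number as a block, all 9 libraries, summed homeologs and each library left out.

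Gene lists were matched by symbol, and they and their members were chosen with earlier results of these data known. Named genes were the 12 largest rises and falls overall and 15 among transcription factors (called, at least 10 CPM in the higher group, no overlap in TMM-scaled CPM). They also include up to 4 changes in each direction and the most abundant member of each list, every cell type marker, paralogs called in opposite directions by at least 4-fold, and homeologs called in opposite directions. Genes named outside this rule (cdh3.L, dusp6.S, etv4.L, gli1.L, gli1.S, gpi.L, hnrnpa1.L, ptch1.L and ybx2.L, and the genes that stood apart in 1 NPB library) were chosen after their values were seen. Some genes that this rule names are not reported here.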

Additional observations from a re-analysis of the deposited data

How the results depend on the processing

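Of the 11797 genes called, 5920 were higher and 5877 lower; with library totals in place of TMM scaling 3637 were higher and 9732 lower. At an adjusted p of 0.01, 3862 were lower and 1232 homeolog pairs moved in the same direction, against 1904 at 0.05. Leaving out each library in turn gave 10289 to 11021 calls, 5417 to 5576 of them higher and 4872 to 5445 lower, and 1586 to 1721 same-direction homeolog pairs; opposite pairs numbered 189 with all libraries and 118 without WT replicate 2. DESeq2 called 12394 genes, limma-voom 11932 and edgeR on all 9 libraries 12547. With the replicate number as a block, 10504 genes were called and 1638 pairs moved together, but the numbers did not pair the libraries: the correlations of same-numbered deviations were −0.0578, −0.0119 and −0.0559. Of 175 named genes, at most 6 lost their call under any alternative that gave them a value, and no called gene changed direction. Only 125 of them were tested with at least 10 counts in every library, and 172 had an adjusted p with DESeq2. The calls of dlx5.S, dmbx1.L and tbxt.S were lost with limma-voom (adjusted p = 0.0833, 0.107 and 0.244) and under a filter of only 1 count in total (0.095, 0.116 and 0.173). Medians moved by more than the spread between replicates in 71 of 87 lists with library totals, 20 when genes with at least 1 count were kept, 23 of 86 with at least 10 counts in every library and 19 with homeologs summed. That of BMP, −0.45, became 0.18 when genes with at least 1 count were kept and 0.07 without WT replicate 3, and that of endoderm, −3.11, became −0.46 with the same filter. The neural crest median was 0.01, 1.53 without NPB replicate 2 and 1.89 with at least 10 counts in every library. The cause of these changes was not tested. Promoter motif shares were not computed, because no sequences were used here, and summed homeologs give no value for single homeologs. The floor of 3 counts was a chosen setting and not a measured limit of detection.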

Other observations

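Gene groups that the account above does not describe moved in both directions, by the same edgeR test. Guidance cues and their receptors, proteins that steer migrating cells and axons, were mostly called: 26 of 54 tested genes were higher and 17 lower (53.7% of all genes tested were called), with a list median of 0.47 (log2) and −0.22 under library totals. The Roundabout receptor gene robo3.S had 33.4, 61.3 and 71.1 CPM in NPB explants, against 4.85, 3.19 and 2.14 CPM in WT explants (adjusted p = 7.74e-05, log2 fold change 4.70 ± 0.39). The semaphorin gene sema6a.S had 24.3, 30.00 and 32.2 CPM in NPB explants, against 1.59, 0.568 and 0.799 CPM in WT explants (adjusted p = 5.46e-05, log2 fold change 5.56 ± 0.42). In the other direction, the plexin gene plxnb3.S, which encodes a semaphorin receptor, had 2.602, 3.604 and 6.92 CPM in NPB explants, against 45.5, 57.2 and 70.5 CPM in WT explants (adjusted p = 0.000319, log2 fold change −3.05 ± 0.36). Among the small RNA pathway genes 1 of 29 tested genes was higher and 10 lower, with a median of −0.49 and −1.15 under library totals. The member called higher was the Argonaute gene ago2.L, with 27.1, 25.3 and 21.6 CPM in NPB explants, against 4.303, 5.75 and 6.58 CPM in WT explants (adjusted p = 0.000136, log2 fold change 2.86 ± 0.28). Its relative ago1.L had 7.94, 3.34 and 6.04 CPM in NPB explants, against 34.9, 38.5 and 42.4 CPM in WT explants (adjusted p = 0.00192, log2 fold change −2.02 ± 0.36). Drosha, the nuclease that cuts primary microRNA transcripts, had 6.32, 11.1 and 9.19 CPM in NPB explants, against 70.1, 88.2 and 61.3 CPM in WT explants for drosha.S (adjusted p = 0.000188, log2 fold change −2.37 ± 0.25).

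In the list of linker and variant histones 7 of 16 tested genes were higher and 2 lower, with a median of 1.10 and 0.39 under library totals. The H3.3 gene h3-3b.L had 2198, 3010.0 and 2827 CPM in NPB explants, against 929, 795 and 825 CPM in WT explants (adjusted p = 2.93e-05, log2 fold change 2.34 ± 0.14). The H2A.Z gene h2az1.S had 1081, 998 and 1036 CPM in NPB explants, against 486, 408 and 417 CPM in WT explants (adjusted p = 5.74e-05, log2 fold change 1.95 ± 0.15). Neither gene overlapped between the groups. In the list of core histones 1 of 12 tested genes was higher and 4 lower; reads from near-identical histone copies cannot be assigned with certainty. In nucleotide synthesis 16 of 33 tested genes were higher and 3 lower, with a median of 0.68 and −0.02 under library totals. GMP synthase, the enzyme that makes GMP, had 118, 57.3 and 59.3 CPM in NPB explants, against 5.04, 6.32 and 4.601 CPM in WT explants for gmps.L (adjusted p = 9.49e-05, log2 fold change 4.61 ± 0.40). CTP synthase, which makes CTP, had 122.8, 110.0 and 183 CPM in NPB explants, against 10.1, 11 and 17.6 CPM in WT explants for ctps1.L (adjusted p = 5.33e-05, log2 fold change 4.11 ± 0.31).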
